A study of Macaca mulatta with 95 samples.

Results

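The subunits of the mitochondrial respiratory chain and of ATP synthase were followed through the first week of rhesus macaque (Macaca mulatta) development, one cell at a time. They were chosen by gene symbol alone: names beginning with NDUFA, NDUFB, NDUFC, NDUFS or NDUFV without the NDUFAF assembly factors (complex I), SDHA to SDHD (complex II), UQCR (complex III), COX4 to COX8 (complex IV) and ATP5 (ATP synthase, complex V). The rule found 82 of the 16049 genes measured, with 37 in complex I, 4 in complex II, 8 in complex III, 16 in complex IV and 17 in complex V. All of them are nuclear genes. Symbols are the older ones used in the table, so that ATP5A1 is now ATP5F1A. A few members fit by name only: NDUFA4 is now counted with complex IV, COX7A2L is a supercomplex factor, ATP5S and ATP5SL are not ATP synthase subunits, and NDUFC2-KCTD14 is a readthrough gene. UQCRFS1 was not analysed here. Many subunit genes have close relatives or processed copies elsewhere (UQCRH and UQCRHL, for example), and reads shared with such copies make their levels uncertain.

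Complexes I and II feed electrons from NADH and succinate into ubiquinone, complex III passes them to cytochrome c, and complex IV hands them to oxygen. Complexes I, III and IV pump protons across the inner mitochondrial membrane, and ATP synthase uses the returning protons to make ATP. Cleavage embryos inherit their mitochondria from the oocyte, and the switch to the blastocyst is known as a time of rising oxygen use.

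Each of 95 single cells was its own library. Embryos came from fertilized oocytes of hormone-stimulated monkeys, grown in HECM-9 medium with serum. All groups share that culture, and all went through zona removal with Pronase, labelling of outer cells with the dye PKH2 and dissociation with trypsin. Stages were the 16-cell embryo (day 3, 3 outer and 2 inner cells), the compacted early morula (day 4, 5 and 5) and the late morula (day 4.5, 5 and 5). Then came the early blastocyst (day 5, 6 outer and 10 inner), the middle blastocyst (day 5.5, 5 outer and 12 inner), the late blastocyst (day 6, 19 inner) and the hatched blastocyst (day 7, 18 inner). A title letter that the labels do not explain divides the cells further: B for 16-cell, H for early morula, D for late morula, A and B for all outer blastocyst cells, and A, B, G or H for inner ones. That made 18 groups of stage, position and letter, 8 with letters A, B and D (35 cells) and 10 with letters G and H (60 cells).

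No label names an animal or an embryo, so each group counts as 1 sample and nothing below carries a test. The ± after a mean is the SD over the cells of the group. Levels are RPKM, the reads of a gene divided by its length in kilobases and by the megareads of the cell, a scale that corrects for gene length. Comparisons are log2 ratios of group means after 1 RPKM was added to each. A gene counted as measured if either mean reached 5 RPKM, and as higher or lower from a 2-fold difference upward. Counts of members are set beside the share of all measured genes that met the same rule.

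Depth, recovered from the spacing of the RPKM values, was 3.56 to 25.1 megareads per cell with a median of 16.3 megareads. The median was 8.85 megareads for letter D, and for the other letters 15.5 (A), 16.2 (G), 16.7 (H) and 19.4 (B). Cells of letters A, B and D had 2358 to 5940 genes at 1 RPKM or more (median 3681), and cells of G and H 2958 to 7379 (median 5550). Lineage markers differed between the letters within a position. The 11 trophectoderm markers measured, genes of the outer layer of the blastocyst, summed to 2257 to 13750 RPKM in the inner early blastocyst cells of letter A and to 25900 to 41070 in the inner middle blastocyst cells of letter B. In inner cells of letters G and H they summed to 60.2 to 1509 RPKM at the early and 299.9 to 3039 at the middle blastocyst. Most of these sums came from the keratins KRT8 and KRT18, with KRT8 at a mean of 16110 RPKM in the inner middle blastocyst cells of B and 572 and 504 in those of G and H. GATA2 averaged 9.52 RPKM in the same B cells, and 0.194 and 7.61 in those of G and H. At the early blastocyst the order was another for CDX2, with means of 8.34 in A, 24.8 in G and 5.11 in H, and for GATA3, with 10.9, 16.0 and 2.19. Epiblast markers summed to 4346 to 12540 RPKM (median 9430) in the inner middle blastocyst cells of B, and had medians of 1978 in G and 2084 in H. Hypoblast markers summed to 389.5 to 4649 RPKM in those of G, 8.35 to 63.1 in those of H and 90.2 to 1174 in those of B. GATA4, one of them, was at 103.4 to 141.1 RPKM in the G cells and listed at 0 in the H cells. Letters G and H thus also differed from each other in lineage markers. AMH and FSHR, markers of the cumulus cells around the oocyte, were listed at 0 in all of these inner cells. The part of these lineage differences in the results below was not tested.

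Most subunits were plentiful. The mean over the 95 cells reached 100 RPKM for 50 of the 82 genes, and 7 stayed below 5 RPKM. Per unit of length, the median member of complex V averaged 261.8 RPKM and that of complex IV 232.7, against 126.9 in complex I, 97.4 in complex III and 85.3 in complex II. ATP5B, the catalytic beta subunit of ATP synthase, was the most abundant of all at 1984 RPKM (SD 972). It was followed by COX8A of complex IV at 989 (SD 932.5), the core subunit UQCRC1 of complex III at 975 (SD 976) and NDUFS8, an iron-sulfur subunit of complex I, at 767 (SD 706). SDHB, the iron-sulfur subunit of succinate dehydrogenase, led complex II with 300.2 (SD 183). A set of 19 genes reached 1 RPKM in every cell, among them ATP5A1, ATP5B, COX4I1, COX5A, COX7C, COX8A, NDUFS8 and UQCRC1.

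The isoforms known from differentiated tissues were nearly absent. COX6A2 and COX7A1 are the heart and skeletal muscle forms of their subunits, COX4I2 a form known from lung and COX6B2 one known from testis. COX6A2 was listed at 0 in all 95 cells and COX6B2 reached 0.0944 RPKM in its highest cell. COX7A1 reached 1 RPKM in 7 cells and COX4I2 in 5, with highest values of 29.3 and 53.5 RPKM. Their common partners stood at means of 583 (COX6A1), 299 (COX6B1), 147 (COX7A2) and 749 RPKM (COX4I1). NDUFA4L2, the hypoxia-linked relative of NDUFA4, reached 0.736 RPKM at most.

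COX7B2, a relative of COX7B known from testis, was the exception. It was at 25.03, 25.6, 42.5, 44.7 and 69.7 RPKM in the 5 outer early morula cells and at 0, 0.254, 0.27, 85.1 and 133 in the 5 inner ones. Of the other cells, 1 of 3 early blastocyst cells of letter G (95.3) and 2 of 4 middle blastocyst cells of letter G (40.6 and 85.2) held it at more than 2 RPKM. So every outer early morula cell had the transcript, while the inner cells of the same stage were split between clear values and values near 0. ATP5G1, ATP5G2 and ATP5G3 encode the same mature c subunit of the ATP synthase ring, and they differed in level: ATP5G3 averaged 678 RPKM and ATP5G2 441, each present in all 95 cells, and ATP5G1 averaged 156 and reached 1 RPKM in 86.

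**Figure D1:**
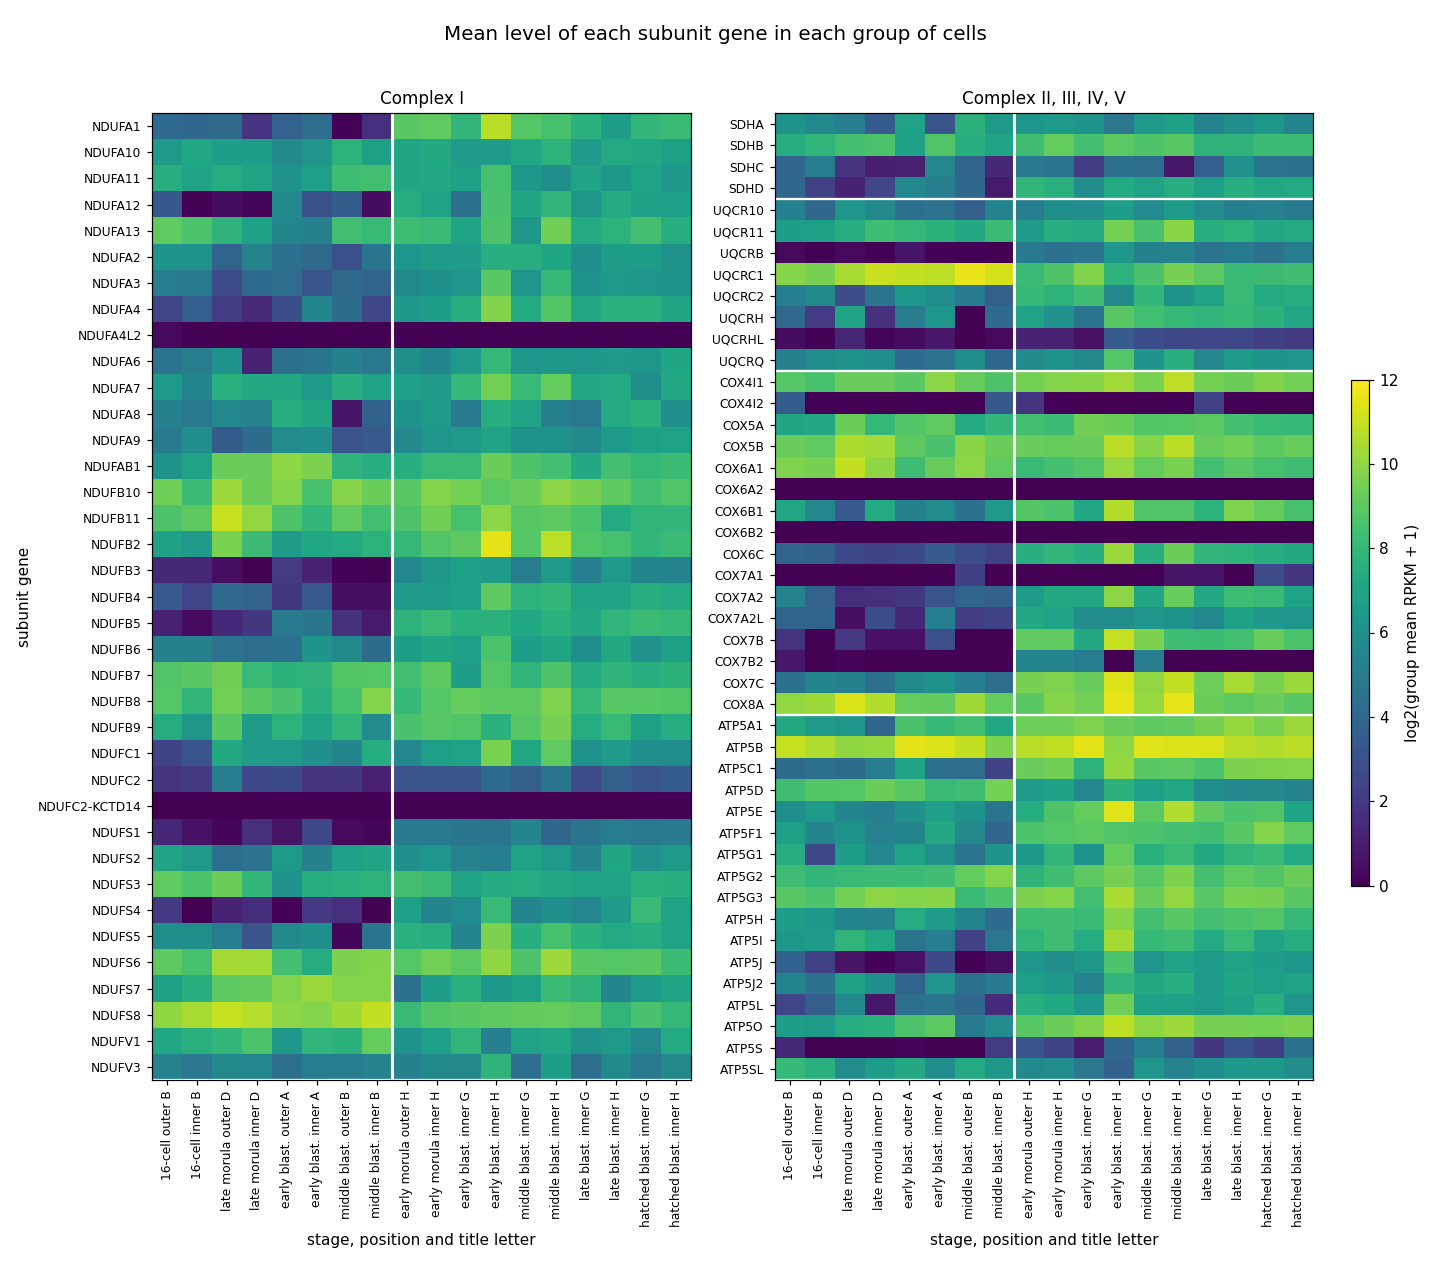
Mean level of each of the 82 genes (rows, by complex) in each of the 18 groups (columns), as log2(group mean RPKM + 1) on a colour scale from 0 to 12. The white vertical line parts the 8 groups of letters A, B and D (left) from the 10 of letters G and H (right); rows such as UQCRB, COX7B, NDUFB4 and ATP5J change colour at that line, and COX6A2 is dark in every column.

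The share of a cell's gene reads that fell on the 82 genes was 0.959 to 4.59%, with a median of 2.07%. It was highest in letter H around the time the cavity forms. The 2 early blastocyst cells of letter H gave 3.76 and 4.26%, and the 4 middle blastocyst cells 2.83, 2.89, 3.19 and 4.59%. Early morula cells of the same letter gave 1.68 to 2.13% (outer) and 2.19 to 2.31% (inner), late blastocyst cells 2.04 to 2.65% and hatched blastocyst cells 1.67 to 2.27%. Every early and middle blastocyst cell of letter H thus lay above every other cell of letter H. In letter G the same stages were level, at 1.92 to 2.40% in early, 2.13 to 2.63% in middle, 0.959 to 2.86% in late and 1.299 to 2.59% in hatched blastocysts. Cells of letters A, B and D spanned 1.22 to 2.75%.

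The number of subunit genes found at 1 RPKM or more differed between the letters, as did that of all genes given above (medians of 3681 and 5550). Cells of letters A, B and D had a median of 59 of the 82 (range 43 to 74), and cells of G and H a median of 74 (range 50 to 76). Within G and H, late blastocyst cells of letter G stood apart with a median of 66 (50 to 74). In the remaining 9 groups of these letters no cell fell below 69. Late cells of letter G also had fewer genes of all kinds at 1 RPKM or more. Their median was 3998, against 4711 in early, 5454 in middle and 6106 in hatched blastocyst cells of letter G. Within letter B the number also differed by stage, at 67 to 74 in outer and 66 in both inner 16-cell cells against 46 to 56 in outer and 43 to 67 in inner middle blastocyst cells. The number of all genes at 1 RPKM or more differed the same way. It was 5327 to 5940 in outer and 5352 and 5362 in inner 16-cell cells, and 2830 to 3932 in outer and 3470 to 4391 in inner middle blastocyst cells.

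**Figure D2:**
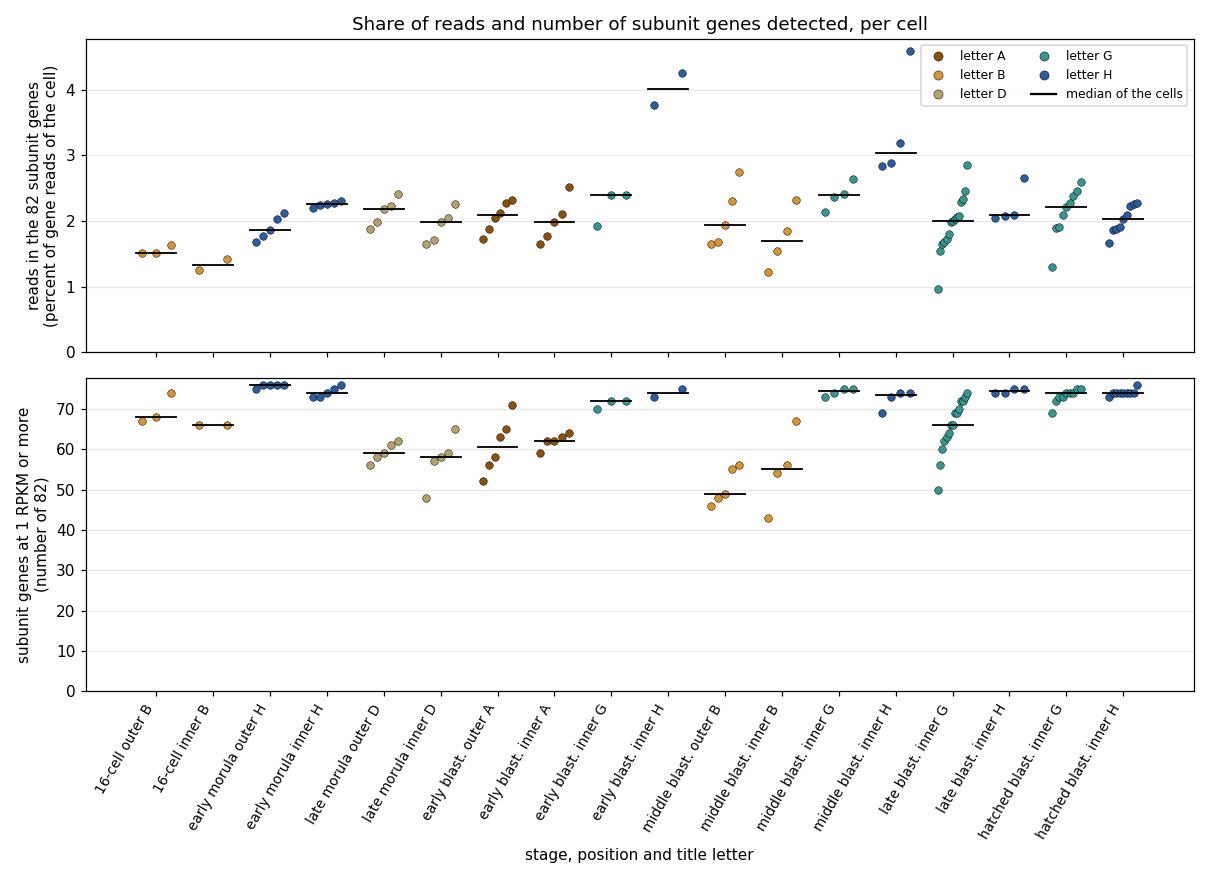
Each point is 1 of the 95 cells, coloured by title letter, with the median of its group as a black line. Top, percent of the cell's gene reads on the 82 subunit genes; the 6 early and middle blastocyst cells of letter H lie between 2.83 and 4.59%. Bottom, number of the 82 genes at 1 RPKM or more, with medians of 59 for letters A, B and D and 74 for letters G and H.

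Inner cells of the blastocyst allowed the letters to be compared within a stage. More members were higher than lower in letters G and H, though the summed levels of some complexes were not. At the early blastocyst, 49 of 75 measured members were higher in G and H than in A, and 5 were lower, against 45.0% and 28.5% of all measured genes. At the middle blastocyst, 53 of 77 were higher than in B and 7 lower, against 55.0% and 24.4%. The share of members called higher at the middle stage was thus not far above that of all genes. The members' median difference was 1.72 log2 units at the early and 2.37 at the middle blastocyst, where that of all measured genes was 0.62 and 1.53. In complex II, 2 of 4 members were higher and 1 lower at the early stage. The summed RPKM of complex III averaged 2155 in A, 1483 in G and 2107 in H at the early blastocyst, and 2764 in B, 1494 in G and 2320 in H at the middle one. That of complex I at the middle blastocyst averaged 8489 in B, 7404 in G and 12890 in H. By members, 5 of 7 measured in complex III were higher and 1 lower at the early stage, and 6 of 8 and 1 at the middle stage. The lower member was UQCRC1, the most abundant of complex III, which weighs heavily in its sums. In complex I at the middle stage, 20 of 35 were higher and 4 lower.

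These values depend on how cells are scaled against each other. With median-of-ratios size factors, a scaling on the genes that most cells share, 28 of 74 members were higher and 17 lower at the early stage (28.8% and 49.6% of all genes), and 41 and 14 of 76 at the middle stage (43.0% and 38.5%). The members' medians became 0.208 and 1.40, and those of all genes −0.964 and 0.162. The distance of the members' median from that of all genes moved less than the early medians themselves: it was 1.10 as deposited and 1.17 scaled at the early blastocyst, and 0.836 and 1.23 at the middle one. Measured against all genes, the subunit median was thus on the higher side in letters G and H at both stages under both scalings.

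In all, 41 of the 75 members measured at both stages were higher in G and H both times, against 34.2% of all genes, and 3 were lower both times, against 13.7%. The 41 made up 17 of 35 in complex I, 1 of 4 in complex II, 4 of 7 in complex III, 8 of 12 in complex IV and 11 of 17 in complex V. They include COX7B2, which rested on 1 of 5 early and 2 of 8 middle blastocyst cells of G and H with all the others listed at 0, and ATP5S, with a median of 0.139 RPKM over the cells of G and H, so the counts per complex are not ranked here. No cells are shared between the stages, but the letters G and H are.

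**Figure D3:**
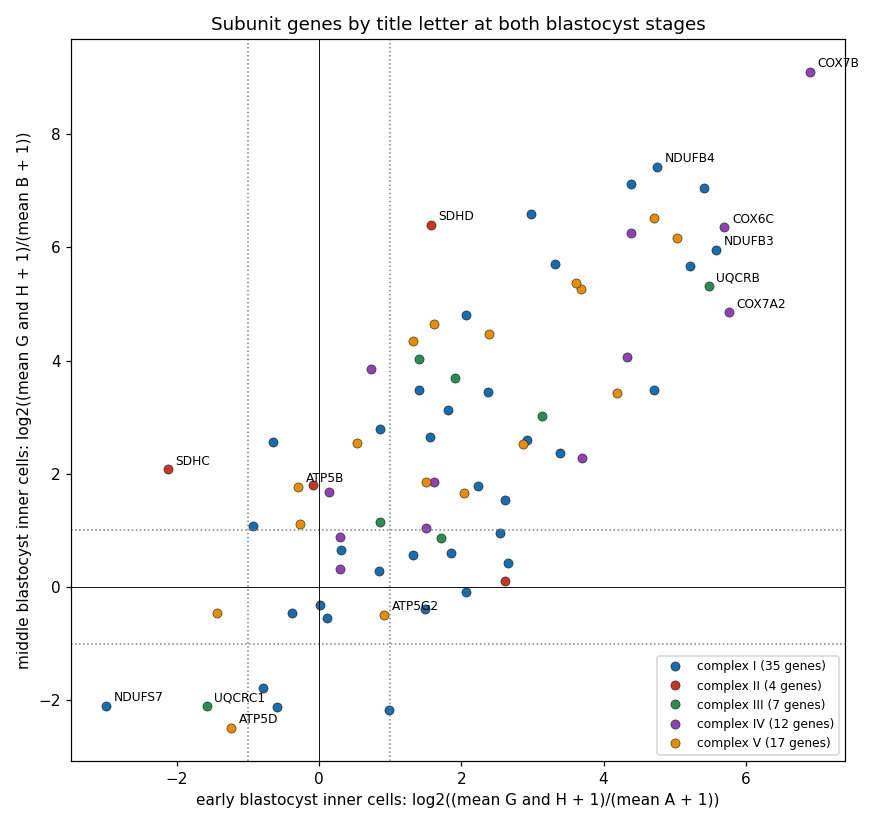
Each point is 1 of the 75 members measured at both stages, coloured by complex; the x axis is the log2 difference between letters G and H and letter A at the early blastocyst, the y axis that between G and H and B at the middle blastocyst. Dotted lines mark 2-fold. COX7B is at the top right, and NDUFS7, UQCRC1 and ATP5D are the 3 members past 2-fold at the lower left.

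COX7B, an accessory subunit of complex IV, had one of the widest gaps between letters. It was at 0.616, 1.22, 1.96, 2.65 and 26.1 RPKM in the 5 early blastocyst cells of letter A. COX7B was at 110, 157 and 194 in the 3 cells of letter G and at 1682 and 2323 in the 2 of letter H. In the middle blastocyst COX7B was listed at 0 in all 4 cells of letter B, and ranged from 496 to 1085 in letter G and from 96.1 to 664 in letter H. The letters did not overlap at either stage. Over all stages COX7B reached 1 RPKM in 60 of 60 cells of letters G and H and in 14 of 35 cells of A, B and D.

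UQCRB, the subunit of complex III that binds ubiquinone, split the cells most completely. It reached 1 RPKM in all 60 cells of letters G and H and in 1 of the 35 cells of A, B and D. Its early blastocyst values were 0, 0.0252, 0.0526, 0.057 and 0.28 RPKM in letter A, then 6.67, 26.3 and 38.8 in G and 79.96 and 85.6 in H. At the middle blastocyst UQCRB was 0, 0, 0.00964 and 0.0754 in letter B, 27.7 to 47.8 in G and 9.45 to 87.2 in H. The highest of those B cells rested on 8 reads, and the lowest H cell on 855.

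ATP5J, the coupling factor in the stalk of ATP synthase, reached 1 RPKM in 58 of 60 cells of letters G and H and in 9 of 35 of the others. At the early blastocyst it was 0, 0, 0.222, 2.04 and 23.8 RPKM in letter A, 57.7, 89.4 and 93.3 in G and 302 and 465 in H. At the middle blastocyst ATP5J was 0 to 0.739 in B, 36.6 to 166 in G and 49.8 to 280 in H. Again no cell of G or H fell to the level of a cell of A or B. Further members present at 1 RPKM or more in over 90% of the cells of G and H and in under 50% of the others were NDUFB4 (60 of 60 and 17 of 35 cells), NDUFB5 (60 and 16) and COX7A2L (55 and 15). No member showed the reverse. The share of all genes that met this rule is not given here. Cells of G and H also had more genes of all kinds at 1 RPKM or more, with a median of 5550 against 3681 in A, B and D.

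Some members found in most cells of every letter differed in level. COX7C, a further small subunit of complex IV, reached 1 RPKM in every one of the 95 cells. Its median was 869 RPKM over cells of G and H and 23.5 over cells of A, B and D. These medians pool stages and positions, which are not matched between the letters. COX6C, at 1 RPKM or more in 60 of 60 cells of G and H and 31 of 35 of the others, averaged 573 RPKM in early blastocyst cells of G and H and 10.0 in those of A. NDUFA1, a small subunit needed to assemble complex I, differed in presence too (57 of 60 and 20 of 35 cells) and averaged 408 RPKM in middle blastocyst cells of G and H and 2.11 in those of B.

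A few core subunits ran the other way. UQCRC1 was at 742, 1400, 1594, 2205 and 2873 RPKM in early blastocyst cells of letter A, at 473, 615 and 1431 in G and at 104 and 324 in H. At the middle blastocyst UQCRC1 was at 1689, 2437, 2707 and 2716 in B, and no cell of G or H exceeded 1014. The early groups overlapped and the middle ones did not.

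NDUFS7, the subunit of complex I next to the quinone site, was at 427 to 2314 RPKM in early blastocyst cells of A and at 64.5 to 245 in those of G and H, without overlap. At the middle blastocyst its values overlapped, at 370, 653, 1150 and 1271 in B and 7.30 to 547 in G and H. ATP5D, the delta subunit of the ATP synthase rotor, averaged 266.5 and 112 RPKM in A and in G and H at the early stage. At the middle stage ATP5D averaged 718 in B and 127 in G and H, where the highest cell of G or H (320) lay just under the lowest of B (321). All 3 genes were at least 2-fold lower at both stages on the deposited scale. SDHC, a membrane anchor of succinate dehydrogenase, differed in direction between the stages, at −2.13 log2 units early and 2.09 at the middle stage. The middle value pools G and H but came from the cells of G. SDHC was low in every middle blastocyst cell of H, with values given below.

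Counting only genes whose cells did not overlap at all, 16 of 75 members lay higher in every G and H cell at the early blastocyst (7.06% of all genes) and 1, NDUFS7, lower (1.84%). At the middle blastocyst 30 of 77 lay higher (7.76%) and 4 lower (4.84%). The 4 were ATP5D, NDUFS8, UQCRC1 and COX4I2, the last through 1 B cell at 34.2 RPKM, with the other B cells at 0.0724 to 0.169 and all G and H cells listed at 0. Fewer cells make such a split easier to reach, and these were 5 against 5 and 8 against 4 cells.

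The pattern held for part of the members across stages. For 22 of 78 members the mean of every G and H group, from early morula to hatched blastocyst, lay above the mean of every A, B and D group, from 16-cell to middle blastocyst (6.9% of all genes). They included 7 of ATP synthase (ATP5A1, ATP5C1, ATP5E, ATP5F1, ATP5H, ATP5J and ATP5L), 5 of complex IV by name (COX6C, COX7A2, COX7A2L, COX7B and COX7C) and 8 of complex I. ATP5D and NDUFS8 lay below throughout (1.51%). COX8A, NDUFS8 and ATP5B were present in every cell whatever its letter, at medians of 681, 384 and 1800 RPKM in G and H and 904, 1365 and 1647 in A, B and D.

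**Figure D4:**
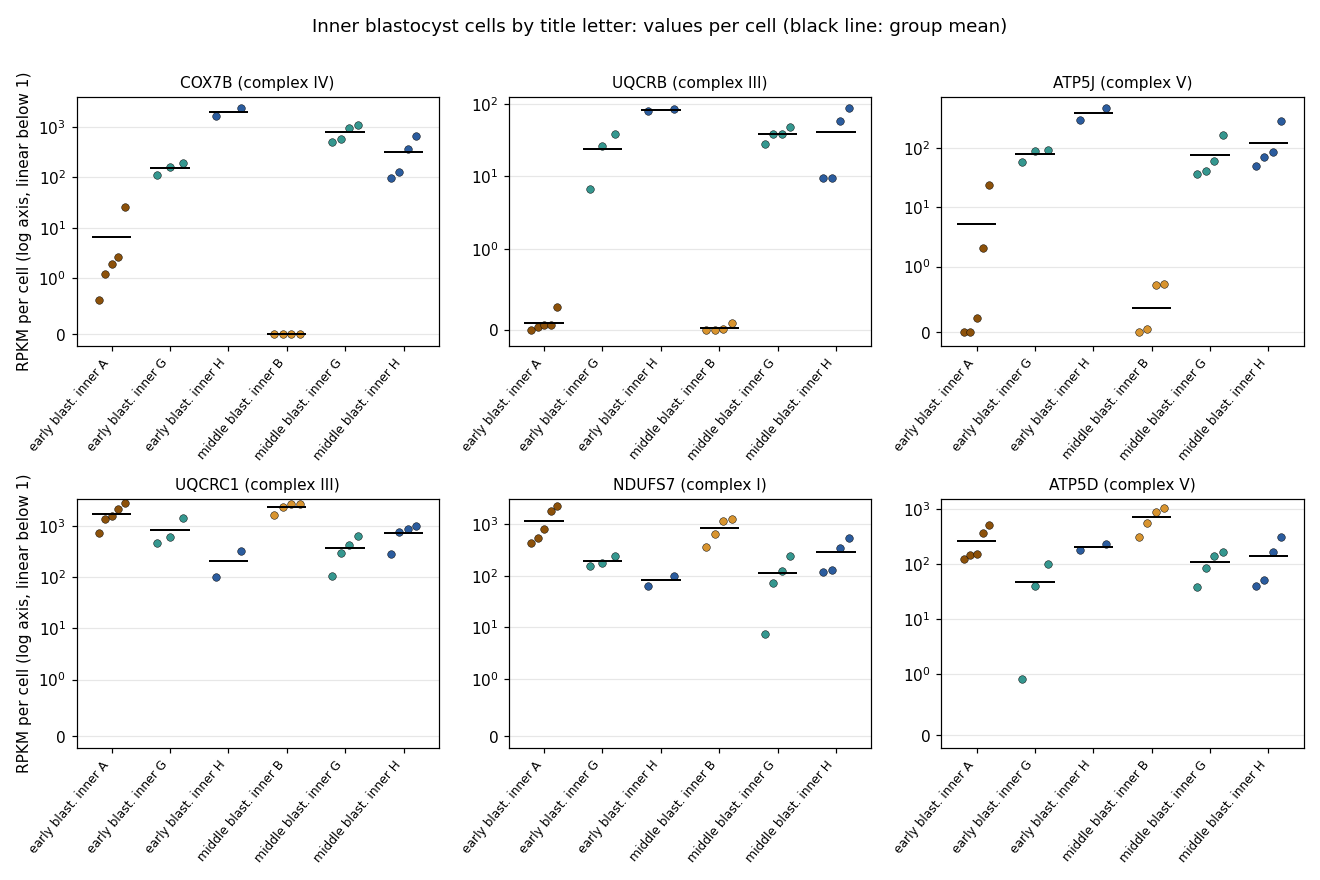
RPKM per cell (log axis, linear below 1) of 6 subunit genes in inner cells of early and middle blastocysts, by letter; points are cells and black lines group means. In the top row COX7B, UQCRB and ATP5J are higher in every cell of letters G and H than in any cell of A or B of the same stage; in the bottom row UQCRC1, NDUFS7 and ATP5D are lower in the group means.

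Most subunit mRNAs are short. The gene lengths behind the RPKM spacing had a median of 790 bases over 78 members and 2760.5 over all genes with a length, and 61.5% of members against 7.32% of all genes were under 1000 bases. Across the members, the Spearman correlation of length with the letter difference was −0.34 at the early blastocyst (75 genes) and −0.09 at the middle (77 genes). Over all genes it was 0.04 and 0.08. These are correlations across genes of the same cells, which share library and depth. UQCRB, with the widest split in presence, is long at 4922 bases, and COX7B short at 456.

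Within letter H the inner cells could be followed from morula to hatching. The source name says hatched for all 4 late blastocyst cells of this letter, while their titles say late. Every value given for late cells of letter H rests on these cells of conflicting labels. More members were higher than lower in the middle blastocyst when it was set against the early morula or the hatched blastocyst. From early morula to middle blastocyst 27 of 76 measured members were higher and 6 lower, against 22.8% and 34.2% of all genes, with a median of 0.57 for the members and −0.30 for all. From middle to hatched blastocyst 3 of 75 were higher and 31 lower, against 37.2% and 22.3%, with medians of −0.83 and 0.31. Both comparisons share the 4 middle blastocyst cells, so a gene that is high there appears in both.

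Scaled by median of ratios, the counts were 46 higher and 2 lower for the first step (36.5% and 23.4% of all genes) and 1 higher and 50 lower for the second (31.0% and 32.6%). The members' median differed from that of all genes by 0.875 log2 units in the first step as deposited and by 0.962 scaled, and by −1.14 and −1.18 in the second. Without middle blastocyst cell 5, which had the largest share of subunit reads, the first median was 0.197 and 10 members were lower. Without cell 9 or cell 5 the second comparison had 10 or 5 higher members.

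For most members the mean of the 2 early blastocyst cells of letter H was higher still. Of 76 members, 44 (57.9%) had their highest mean of the 5 inner H groups there, against 16.0% of all genes, and 30 (39.5%) their lowest in the hatched blastocyst, against 10.5%. Only 2 cells make the early mean. The summed RPKM of complex I averaged 8239 ± 509 in early morula, 17160 ± 707 in early, 12890 ± 2711 in middle, 6116 ± 798.5 in late and 5665 ± 690 in hatched blastocysts. Complex IV went from 5263 ± 302 through 16360 ± 1061, 11620 ± 5773 and 5808 ± 1385 to 4616 ± 550. Complex V spanned a narrower range, from 7253 ± 553 through 14240 ± 842, 10320 ± 1076 and 7959 ± 1135 to 7358 ± 977. Complex III had its highest mean in the middle blastocyst, at 1024 ± 155, 2107 ± 273, 2320 ± 971, 1183 ± 235 and 941 ± 196 in the same order. Summed over all members, middle cell 5 (52640 RPKM) lay between the 2 early cells (48240 and 52900). Complex II was not higher in the early and middle blastocyst than in the morula: its sum averaged 888 ± 162, 708 ± 421, 772 ± 95.3, 530 ± 165 and 520 ± 98.8 RPKM in the same order. The total RPKM of a cell differed too, at 935800 and 1001000 in early and 836100 to 855700 in middle cells. It was 666400 to 716300 in morula and 605900 to 714800 in hatched cells. As a share of that total, all members made up 3.16 to 3.42%, 5.16 and 5.29%, 3.70 to 6.22%, 2.91 to 3.83% and 2.41 to 3.20% in the same order.

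The members with the widest differences came from several complexes. ATP5E, the epsilon subunit of the ATP synthase rotor, was at 204, 362, 388, 524 and 611 RPKM in inner early morula cells. It was at 2532 and 2906 in the early and 1131, 1389, 1508 and 1960 in the middle blastocyst. Late blastocyst cells had 305, 341, 458 and 459 and hatched cells 50.5 to 301 (median 144, n = 9). Morula and late cells overlapped with each other for ATP5E, and neither reached the middle blastocyst cells.

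NDUFB2, an accessory subunit in the membrane arm of complex I, was at 317 to 534 RPKM in the 5 morula cells, 2665 and 3223 in early and 1221, 1601, 2133 and 2210 in middle blastocyst cells. It was at 289 to 413 in the 4 late and 170 to 557 in the 9 hatched blastocyst cells. COX8A ran from 757 to 1081 in the morula to 2426 and 3824, then 1553, 1555, 2993 and 5825, then 272 to 790 and 246 to 721. For both genes every early and middle blastocyst cell lay above every cell of the other stages of letter H inner cells.

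UQCR11, a small subunit of complex III, gave 126 to 237 RPKM in morula cells, 598 and 823 in early and 631, 671, 748 and 1630 in middle blastocyst cells, 114 to 292 in late and 87.4 to 258 in hatched cells. NDUFC1 of complex I was at 20.9 to 156 RPKM in morula cells, 563 and 954 in early and 293 to 1207 in middle blastocyst cells, 51.8 to 124 in late and 11.2 to 110 in hatched cells. The early and middle blastocyst cells again lay above all the others, for UQCR11 as for NDUFC1.

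Other members had other patterns in the same cells. ATP5A1, the alpha subunit of ATP synthase, was at 516 to 910 RPKM in morula, 503 and 733 in early, 399 to 708 in middle, 944 to 1285 in late and 680 to 1543 in hatched cells. Every late cell thus lay above every early and middle blastocyst cell for ATP5A1, the reverse of ATP5E. UQCRC2, a core subunit of complex III, was at 175 to 284 in morula cells, 27.7 and 69.4 in early and 25.5 to 141 in middle blastocyst cells. It was at 227 to 393 in late and 80.9 to 369 in hatched cells. SDHC was at 5.59 to 42.6 in morula cells, 0.0518 to 1.65 in the 4 middle blastocyst cells and 54.6 to 92.2 in the 4 late ones. COX4I1 and ATP5B were again highest in the middle blastocyst when set against the morula and hatched means. COX4I1, the common form of a regulatory subunit of complex IV, averaged 864 RPKM in the morula, 1780 in the middle and 685 in the hatched blastocyst. ATP5B averaged 1870 in inner morula, 1010 in early, 2619 in middle and 1732 in hatched blastocyst cells.

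**Figure D5:**
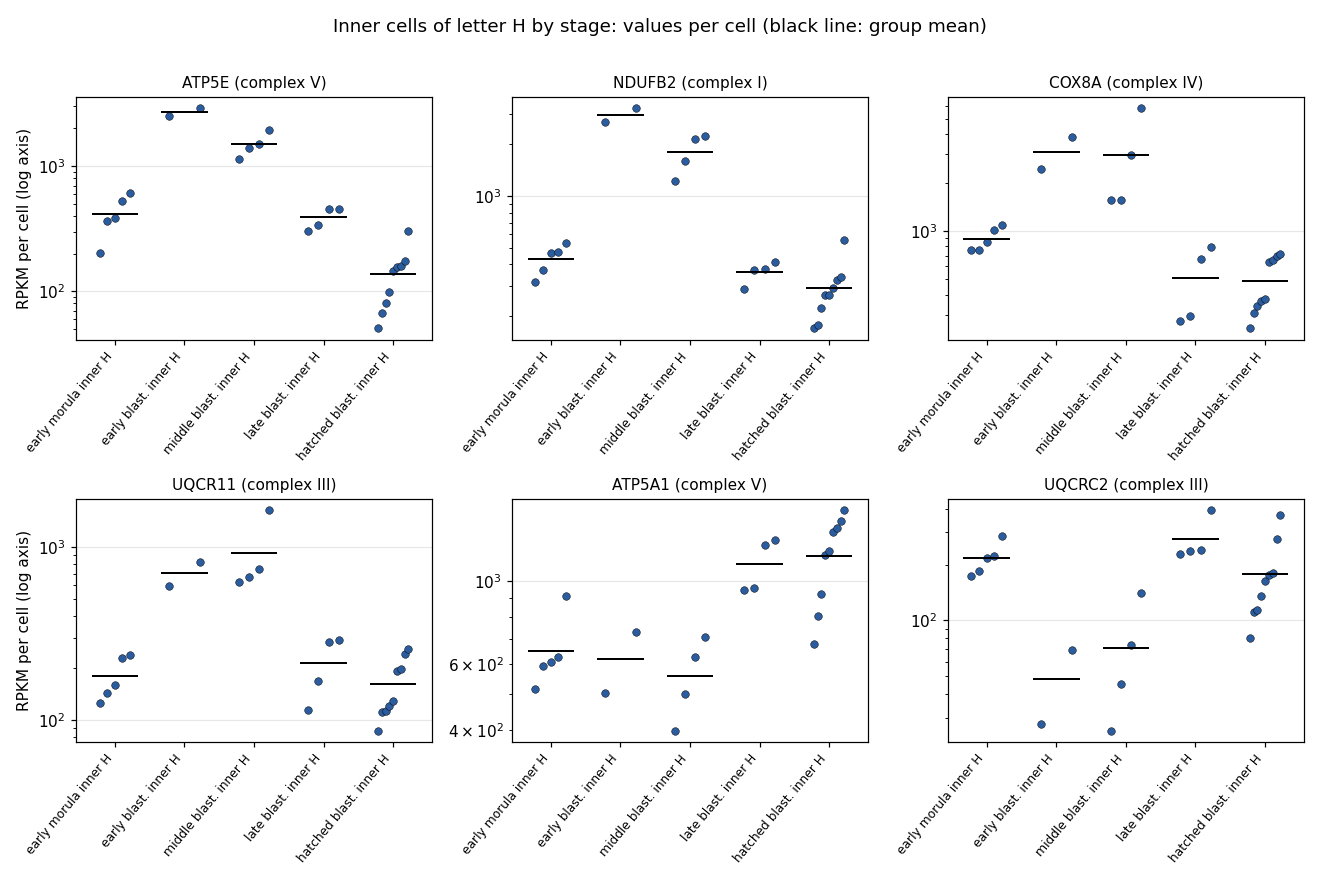
RPKM per cell (log axis) of 6 subunit genes in inner cells of letter H at 5 stages; points are cells and black lines group means. ATP5E, NDUFB2, COX8A and UQCR11 are highest in the early and middle blastocyst, while ATP5A1 and UQCRC2 are higher in late and hatched than in middle blastocyst means.

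Lineage markers also differed between these stages. Epiblast markers summed to 1780 to 2681 RPKM in inner early morula cells, 1545 to 2387 in middle and 6891 to 9039 in hatched blastocyst cells of letter H, and NANOG averaged 75.1 in the middle and 628 in the hatched cells. Hypoblast markers summed to 8.88 to 38.2 RPKM in the inner early morula cells and 8.35 to 63.1 in the middle blastocyst cells. They summed to 170.1 to 2584 RPKM in the late and 0.833 to 9.43 in the hatched cells. The part of this change of lineage in the lower subunit levels of hatched cells was not tested.

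In letter G the differences between stages were smaller, and the cells of these stages also differed in lineage markers, given below. From middle to late blastocyst 1 of 76 measured members was higher, NDUFA13, and 13 were lower, against 26.0% and 26.8% of all genes, with a median of −0.44 beside −0.10 for all genes. From late to hatched blastocyst 10 of 74 were higher and 3 lower, against 26.6% and 16.2%, with medians of 0.29 and 0.28. Without middle blastocyst cell 2, 3, 4 or 10, 2 members were higher in the first step. Both steps share the 15 late cells. Under median-of-ratios scaling the first count became 6 higher and 6 lower (39.5% and 16.3% of all genes) and the second 3 and 17 (13.9% and 34.8%), and both medians of the members changed sign, to 0.0747 and −0.494. The members' median lay −0.337 log2 units from that of all genes in the first step as deposited and −0.512 scaled, and 0.00713 and 0.014 in the second. By group means, 31 of 77 members (40.3%) were highest in the middle blastocyst among the 4 G groups, against 26.1% of all genes, and 24 (31.2%) lowest in the late blastocyst, against 21.2%.

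The 13 members lower in late than in middle blastocyst cells of letter G were 7 of 35 measured in complex I, 1 of 4 in complex II, 2 of 8 in complex III, 2 of 12 in complex IV and 1 of 17 in complex V. NDUFA8, an accessory subunit of complex I, was at 63.3, 95.5, 152 and 162 RPKM in the 4 middle blastocyst cells. In the 15 late cells it ran from 0 to 209 with a median of 0.371, and in the 9 hatched cells from 73.3 to 288 with a median of 233. NDUFA8 was thus below 1 RPKM in at least 8 of the 15 late cells, while the highest late cells reached the level of the other stages. By median, late cells of letter G also had fewer genes of all kinds at 1 RPKM or more, as given above. NDUFS4, another accessory subunit of complex I, was at 0.099, 1.04, 76.4 and 91.8 in middle, 0 to 193 in late (median 23.1) and 172 to 424.5 in hatched cells. COX6B1 was at 0.191 to 1125 in late cells (median 151) and 69.9 to 1130 in hatched cells (median 604). ATP5F1, a stator subunit of ATP synthase, averaged 318.5 RPKM in late and 879 in hatched cells. NDUFS7, NDUFA7 and NDUFB10 were the 3 lower in hatched cells, NDUFB10 with 738 against 331 RPKM.

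Late blastocyst cells of letter G were mixed by label and by markers. In 5 of the 15 the source name says hatched. These had trophectoderm marker sums of 4146 to 8236 RPKM and epiblast sums as low as 15.1, while the other 10 had epiblast sums of 977 to 14430. Subunit genes at 1 RPKM or more numbered 62 to 74 in the 10 cells and 50 to 72 in the 5, and subunit reads made up 1.55 to 2.86% and 0.959 to 2.34%. Hatched cells of letter G had epiblast sums of 157.5 to 885 and trophectoderm sums up to 21020 RPKM. Hypoblast sums had medians of 2468, 32.4 and 61.1 RPKM in middle, late and hatched cells of letter G. GATA4, a hypoblast marker, was at 103.4 to 141.1 RPKM in the 4 middle cells. It reached 1 RPKM in 4 of the 15 late and 1 of the 9 hatched cells. GATA2, a trophectoderm marker, averaged 0.194 RPKM in middle, 213.3 in late and 445.8 in hatched cells. The part of these differences in the counts above was not tested.

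Letter B linked the 16-cell embryo with the middle blastocyst. In outer cells 9 of 67 members were higher in the blastocyst and 20 lower, against 29.0% and 40.3% of all genes, with medians of 0.06 and −0.41. In inner cells 16 of 63 were higher and 20 lower, against 25.8% and 46.3%, with medians of −0.21 and −0.75. The scaling decided the direction here: with median-of-ratios factors 40 were higher and 9 lower in outer cells (58.2% and 18.6% of all genes) and 30 and 4 in inner cells (47.7% and 23.3%), while the medians of all genes moved to 1.47 and 0.843. Without inner middle blastocyst cell 2, the inner comparison had 8 higher members and a median of −0.834.

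NDUFS7 was higher in the blastocyst at both positions, at 110 and 870 RPKM in outer and 182 and 861 in inner cells. UQCRC1 was at 608, 947 and 1188 in the 3 outer 16-cell cells and at 1158, 3156, 3481, 3849 and 4636 in the 5 outer blastocyst cells. NDUFS5 of complex I was at 34.4, 50.3 and 96.5 in outer 16-cell cells and at 0 to 0.289 in the 5 outer blastocyst cells, where at most 3 reads stood behind a value. NDUFA1 was at a mean of 17.4 in outer 16-cell cells and 0.0848 in outer blastocyst cells.

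Outer and inner cells were compared within a stage and letter. Counting outer against inner, the 16-cell stage had 12 of 67 members higher and 4 lower (24.0% and 20.6% of all genes) and the early morula 1 of 75 higher and 4 lower (16.1% and 9.12%). The late morula had 15 of 61 higher and 5 lower (31.2% and 26.9%), the early blastocyst 8 of 70 and 15 (29.0% and 32.7%) and the middle blastocyst 17 of 63 and 13 (36.3% and 24.7%). The members' medians were 0.20, −0.26, 0.28, −0.16 and 0.27 log2 units in that order, and those of all genes −0.00028, 0.096, 0.109, −0.109 and 0.33. With median-of-ratios scaling the split of higher to lower was 11 to 5 (22.6% and 23.3% of all genes), 1 to 10 (12.8% each), 15 to 5 (32.5% and 28.6%), 14 to 16 (35.9% and 32.0%) and 27 to 8 (46.2% and 19.3%), and the members' median at the early blastocyst changed sign, to 0.0904.

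ATP5G1 had the largest gap at the 16-cell stage, with 143, 181 and 199 RPKM in the 3 outer and 1.34 and 9.29 in the 2 inner cells. At the early morula it was the other way, at 42.6, 45.3, 85.6, 116 and 124 in outer and 162, 201, 242, 251 and 330 in inner cells. Neither stage showed overlap for ATP5G1, but the 2 stages carry different letters, and 3 against 2 cells split easily. NDUFS7 at the early morula was at 2.72 to 37.7 in outer and 57.6 to 198 in inner cells, also without overlap.

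At the blastocyst the single-cell spread within a position was wide. SDHA, the flavoprotein of succinate dehydrogenase, was at 0.73, 1.03, 6.05, 86.5, 97.5 and 523 RPKM in the outer early blastocyst cells and at 0, 0.0537, 0.105, 17.5 and 22.8 in the inner ones of letter A. Its mean was higher outside, 119 against 8.09, with overlapping cells. UQCRH, the hinge protein of complex III, averaged 127 in outer and 2.23 in inner late morula cells, and COX6B1 9.75 and 163.5. Without inner cell 2 of the middle blastocyst, that comparison went from 17 higher and 13 lower to 29 and 4. Single cells also moved counts by over 1.5 times at the 16-cell stage (21 higher and 8 lower without inner cell 1), the early morula (7 lower without outer cell 3 or 6, 3 higher without inner cell 2), the late morula (8 lower without outer cell 1 or 3) and the early blastocyst (13 higher without inner cell 7).

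Other lists were counted in the same comparisons. From early morula to middle blastocyst in letter H, where 22.8% of all genes were higher and 34.2% lower, 4 of 40 assembly factors of these complexes were higher and 11 lower, among the latter TMEM126B (19.8 to 0.0119 RPKM) and NDUFAF7 (17.8 to 0.0255), both known for complex I assembly. Of 68 mitochondrial ribosomal proteins 5 were higher and 20 lower, and of 20 genes for mitochondrial genome expression and biogenesis none was higher and 7 were lower, with GABPB1, a subunit of the factor NRF-2, from 20.9 to 0.0736. Tricarboxylic acid cycle and pyruvate dehydrogenase genes were even, with 3 higher and 3 lower of 17. Carriers, quinone synthesis genes and the inhibitor of ATP synthase had 5 higher and 7 lower of 18. Cytosolic ribosomal proteins had 16 higher and 2 lower of 79. The shares of assembly factors and mitochondrial ribosomal proteins called lower were thus near that of all genes. The median was 0.57 for the subunits, 0.438 for cytosolic and −0.492 for mitochondrial ribosomal proteins, and −0.576 for assembly factors, beside −0.30 for all genes.

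From middle to hatched blastocyst in letter H, where 37.2% of all genes were higher and 22.3% lower, 8 of 39 assembly factors were higher and 12 lower, 6 and 13 of 68 mitochondrial ribosomal proteins, and 1 and 19 of 79 cytosolic ribosomal proteins. On the deposited scale the median of each of these 6 lists was above 0 in G and H against A or B at both blastocyst stages. That of all genes was too, at 0.62 early and 1.53 at the middle stage. Assembly factors (0.519) and mitochondrial ribosomal proteins (0.377) lay below it at the early stage, and carriers and quinone synthesis genes (1.235) at the middle one. The other list medians lay above it. Higher at the middle blastocyst were 22 of 37 assembly factors, 37 of 69 mitochondrial and 60 of 79 cytosolic ribosomal proteins and 13 of 17 tricarboxylic acid cycle and pyruvate dehydrogenase genes, against the 55.0% of all genes given above. RPL39, which encodes a very small protein of the cytosolic ribosome, was at 1110 against 0.21 RPKM there.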

How the data were processed

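RNA of 95 single cells was measured with 100-base single-end reads, after PCR amplification of cDNA with an added poly(A) tail, per the labels' protocols, which mention no molecular identifiers. The authors deposited 1 value per gene symbol and cell without naming a unit. The values were read as RPKM made by the authors, since for 10754 genes with at least 10 cells above 0 all values (100%) came out as whole reads, within 0.05, of a gene length in whole bases and a total per cell. Per the submitters' processing notes, the tools named are TopHat2 2.1.0, FastQC, DESeq2 and HTSeq; what each did is not given. The genome build is not given in the sources used here.

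All 95 value columns were matched to samples by title. Of the 82 member symbols, 62 are in the RefSeq gene table. No pair of cells held identical values (0 pairs). Group means of RPKM were compared in 13 contrasts (5 of position, 6 of stage and 2 of letter) with a pseudocount of 1 RPKM, a mean minimum of 5 RPKM and a 2-fold threshold. Cells are not replicates and no embryo is named, so no test was run, and RPKM were not treated as counts. Read recovery was tested on simulated data. The planned protein length was replaced by recovered gene length. Members, lists and comparisons were chosen with earlier results of these data known. Named genes were the 4 largest differences in each direction per contrast, the extremes of each complex, a set of core subunits, isoform pairs, and the 2 largest differences of other lists; UQCRB and NDUFB5 were chosen outside this rule after their values were seen. Alternatives were another pseudocount, filters, median-of-ratios scaling, group medians, pooled reads, leaving out cells, and leaving out 9 late blastocyst cells whose source name says hatched. Python 3.11.15, numpy 2.4.6 and pandas 2.3.3 were used.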

Additional observations from a re-analysis of the deposited data

Results flagged for a closer look

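Per-cell sums and numbers of detected subunits were checked for single cells far from their group, in 78 sets of 4 to 10 cells, where chance flags about 1 in 20 sets. Complex II summed to 948 RPKM in outer middle blastocyst cell 3 of letter B, beside 179.6 to 381 in the rest. Complex III summed to 3759 RPKM in middle blastocyst cell 5 of letter H, beside 1626 to 1961. Complex V summed to 9641 RPKM in late blastocyst cell 9 of letter H, beside 7263 to 7643. Subunit genes at 1 RPKM or more numbered 75 in outer early morula cell 3 and 76 in each of the others, 69 in hatched blastocyst cell 14 of letter G beside 72 to 75, and 76 in hatched blastocyst cell 3 of letter H beside 73 to 74.

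The position difference of some members was opposite at the first 2 stages, with no overlap of cells at either, and the difference between the stages was not tested. The share of all genes that met the same rule is not given here. At the 16-cell stage, with 3 outer and 2 inner cells, a split without overlap is easily reached. ATP5G1 differed by 4.79 log2 units (outer over inner) at the 16-cell stage and by −1.51 at the early morula. NDUFB10 of complex I differed by 1.14 and −0.86. Its values were 554, 673 and 706 RPKM in outer and 230.1 and 355 in inner 16-cell cells, and 268 to 738 in outer and 770 to 998 in inner early morula cells. The 16-cell cells carry letter B and the morula cells letter H, so stage and letter cannot be told apart.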

How the results depend on the processing

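No paired analysis was possible because no test is run and the number in a title names a cell. The sign of the members' median stayed in 72 of 80 values under other settings and in 86 of 92 with a cell left out. Not every cell was left out in turn. The late to hatched comparison of letter G had none left out. The early blastocyst position comparison had 5, and middle to late in letter G and middle to hatched in letter H had 4 each. Median-of-ratios scaling moved 7 medians by more than the spread of the cells: 16-cell to middle blastocyst in letter B to 1.78 (outer) and 0.85 (inner), letter H to 1.39 (early morula to middle) and −1.36 (middle to hatched), letter G to 0.0747 (middle to late) and −0.494 (late to hatched), and the early blastocyst letter difference to 0.208; the cause was not tested. Expressed as a share of each cell's total RPKM, the sums of hatched over middle blastocyst in letter H moved to −0.82 for complex I, −0.199 for complex II and −0.119 for complex V. At 5 RPKM, the median of detected members in letters A, B and D was 51. Leaving out single cells gave medians of 0.153 to 0.397 for position at the 16-cell stage, −0.834 to −0.0269 for letter B inner cells by stage and 0.197 to 0.666 for early morula to middle blastocyst in letter H. With group medians in place of means, 25 members were lower in late than in middle blastocysts of letter G and 20 higher in hatched than in late ones, 31 were lower in outer middle blastocyst cells than at the 16-cell stage, 9 were higher in hatched than in middle blastocysts of letter H, and position counts became 7 lower (16-cell), 12 lower (late morula), 17 higher (early blastocyst) and 10 higher (middle blastocyst). With a pseudocount of 10, 7 members were higher and 0 lower in outer 16-cell cells, 3 lower in outer late morula cells and 6 higher in hatched blastocysts of letter G. Without the 9 cells of differing labels, 3 members were higher in late than in middle blastocysts of letter G. Values rest on 2 to 15 cells a group, and the precision of 2-cell groups is low.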
